A study of Mus musculus with 2 samples.

Results

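Genes that build triglyceride in the fat cell, supply its glycerol backbone and bring in its fatty acids were followed in the epididymal fat pad of PPARβ/δ knockout mice and of wild-type mice; PPARβ/δ, encoded by Ppard, is a nuclear receptor that fatty acids activate. The set has 9 genes, chosen by their place in the pathway: Gpam, Agpat2, Agpat3, Lpin1, Dgat1 and Dgat2 for the esterification steps, Pck1 and Gpd1 for the supply of glycerol 3-phosphate, and Lpl for lipoprotein lipase. All probe sets that the array annotation assigns to these genes were used. There were 16, for 8 of the genes, out of 22690 probe sets and 12394 named genes on the array, and the annotation used here names none for Agpat2.

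The wild-type pool held RNA of 5 male mice aged 12 to 16 weeks, and the knockout pool RNA of 5 male PPARβ/δ knockout mice aged 12 weeks, both fed standard chow. Each pool was hybridised to 1 Affymetrix array. The design text describes the wild-type mice as littermates on a mixed Sv129/C57BL/6 background, whereas their own label gives 129S1/SvJae, so strain and genotype cannot be told apart. The knockout is not described as restricted to any tissue.

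With 1 array per genotype there is no spread between replicates, no test and no p-value, and each difference describes these pools only. The values are probe set intensities on a linear scale, and differences are log2 of the knockout intensity minus log2 of the wild-type intensity. A probe set was kept when it reached 32 in either pool, and each gene was represented by its brightest kept probe set, which gave 6533 genes. Over the 2137 genes with several kept probe sets, the median SD among probe sets of the same gene was 0.25 on the log2 scale, which shows part of the technical error and nothing of the differences between animals. Ppard itself read 6.58 (wild type) and 6.27 (knockout), below that floor, and gave no check of the genotype labels.

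Triglyceride is assembled on glycerol 3-phosphate. An acyltransferase adds a fatty acid to give lysophosphatidic acid, an AGPAT enzyme adds another to give phosphatidic acid, a lipin removes the phosphate, and a DGAT enzyme attaches the last fatty acid to the diacylglycerol. White fat cells contain little glycerol kinase, so they draw glycerol 3-phosphate from glucose or, during fasting, from lactate and amino acids through glyceroneogenesis. Fatty acids reach the cell from circulating lipoproteins through lipoprotein lipase at the capillary wall, and the related receptor PPARγ is a well known activator of several of these genes in fat.

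Most of the member genes had lower values in the knockout pool. Of the 8 genes measured, 7 were lower and 3 of these were lower by 2-fold or more, namely Lpin1, Dgat1 and Gpd1, while Agpat3 alone was higher. For comparison, 9.14% of all 6533 genes were at least 2-fold lower and 55.5% were lower by any amount. The member genes were bright, and among the 2356 genes with a mean log2 intensity of at least 8 the corresponding shares were 9.3% and 58.5%. No member reached a 2-fold higher value, against 13.7% of all genes and 8.06% of the bright ones, although Agpat3 came to 1.07 when differences were centred on the median of kept genes. The median difference of the 8 members was -0.84, a 1.79-fold lower value, whereas the median of all kept genes was -0.08 with quartiles of -0.50 and 0.42. At the level of probe sets, 12 of the 13 kept probe sets of these genes were lower, 4 of them by 2-fold or more. These belong to the same 8 genes, 5 of them with several kept probe sets, so this count repeats the gene result. The share among all kept probe sets was not computed.

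**Figure D1:**
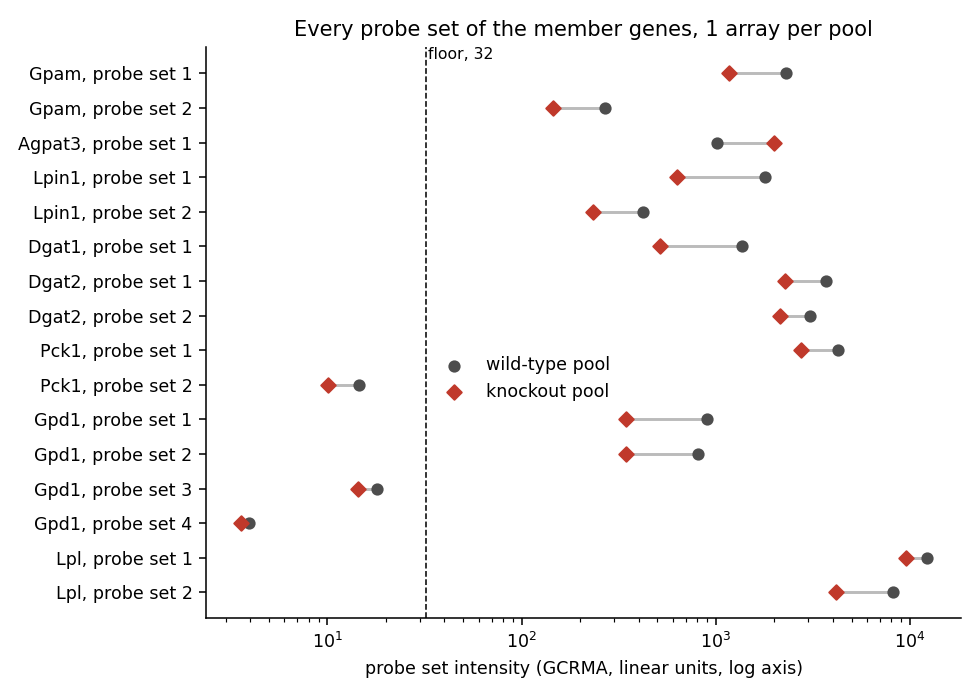
Intensity of all 16 probe sets of the member genes in the wild-type pool (circles) and the knockout pool (diamonds), on a log axis, with the floor of 32 as a dashed line; probe sets of 1 gene are numbered from the brightest in the wild-type pool. The knockout value lies to the left of the wild-type value for every probe set except that of Agpat3, and 3 probe sets, 1 of Pck1 and 2 of Gpd1, lie below the floor on both arrays.

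The esterification members were lower at every step apart from the AGPAT step, although further enzymes of these steps went in both directions. Gpam, the mitochondrial glycerol 3-phosphate acyltransferase that starts the pathway, had an intensity of 2294 in wild-type and 1172 in knockout RNA at its brightest probe set (1419499_at). This is a log2 difference of -0.97, just short of 2-fold. A dimmer probe set of Gpam (1425834_a_at) was at 270.2 and 145, a difference of -0.90, so that both placed the knockout level at 51.1% to 53.7% of the wild type. A spread between probe sets as wide as the 0.07 of Gpam was present in 90.9% of the genes with several probe sets.

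Agpat3, a lysophosphatidic acid acyltransferase of the endoplasmic reticulum and Golgi, had an intensity of 1012 in wild-type and 2000 in knockout RNA, 1.98-fold higher (a log2 difference of 0.98). It was the only member higher in the knockout pool, and it was measured by a single probe set (1450504_a_at) whose suffix marks sequence shared between transcripts. Of all kept genes, 86.1% had a difference as low as that of Agpat3 or lower. Agpat2, the isoform whose loss causes generalised lipodystrophy, was not analysed here. The AGPAT step in these data therefore rests on 1 probe set.

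Lpin1, the phosphatidate phosphatase that is defective in the fatty liver dystrophy mouse, had the lowest difference of the 8 genes at the probe sets used, though not when probe sets were averaged. Its brighter probe set (1418288_at) had an intensity of 1790 in wild-type and 628 in knockout RNA, 2.85-fold lower (-1.51). Its dimmer probe set (1426516_a_at) was at 420 and 232, 1.81-fold lower (-0.86). The probe sets shared a direction but differed in size by 0.66, a spread reached by 27.7% of genes with several probe sets, and their mean was -1.18, above Dgat1 (-1.40) and the mean of Gpd1 (-1.31). Only 2.63% of kept genes had a difference as low as the -1.51 of the brighter probe set.

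The DGAT enzymes, which complete triglyceride and are unrelated in sequence, were both lower but to different extents at the probe sets used. Dgat1, an enzyme of the endoplasmic reticulum that also esterifies retinol, had an intensity of 1359 in wild-type and 513 in knockout RNA, 2.65-fold lower (-1.40), at its single probe set (1418295_s_at). The suffix of that probe set differs from that of Agpat3, though both were counted here as marking shared sequence. Dgat2, which favours newly made fatty acids and associates with lipid droplets, was at 3693 and 2259, 1.63-fold lower (-0.71), at its brighter probe set (1422677_at). A further probe set of Dgat2 (1422678_at) was at 3053 and 2150, a difference of -0.51. The difference of Dgat1 was thus 0.70 below that of Dgat2, a gap larger than the 0.20 between the probe sets of Dgat2. The gap is close to the 0.66 between the probe sets of Lpin1 and the 0.61 of Lpl. With 1 array per pool it was not tested. The ratio of Dgat1 to Dgat2 signal cannot be read as a ratio of transcripts, because probe sets differ in their response.

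**Figure D2:**
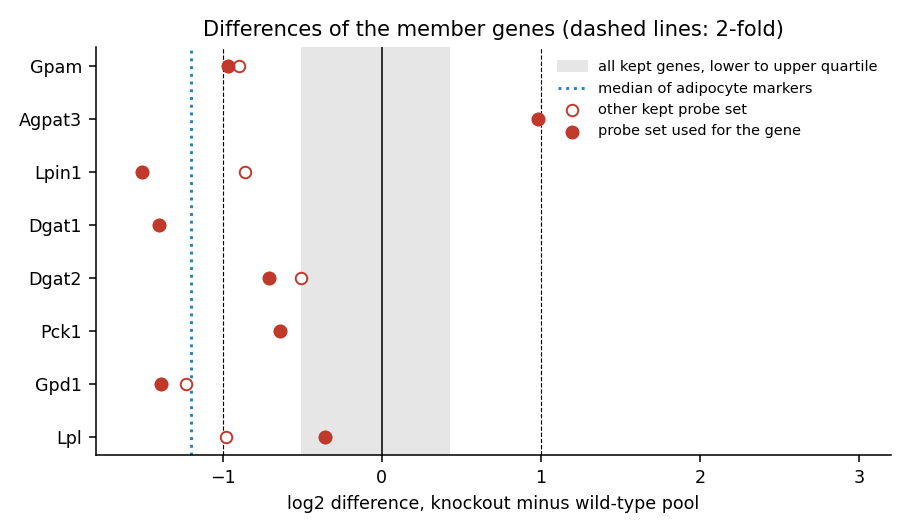
Log2 difference, knockout minus wild-type pool, of each member gene: filled points show the probe set that represents the gene, open points its other kept probe sets, dashed lines mark 2-fold, and the grey band runs from the lower to the upper quartile of all kept genes (-0.50 to 0.42). Lpin1, Dgat1 and Gpd1 lie below the dashed line at the left and below the adipocyte marker median of -1.20 (dotted), and Agpat3 lies at 0.98.

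Both genes of glycerol 3-phosphate supply were lower. Gpd1, the cytosolic dehydrogenase that makes glycerol 3-phosphate from the glycolytic intermediate dihydroxyacetone phosphate, had an intensity of 899 in wild-type and 344 in knockout RNA at its brightest probe set (1448249_at), 2.62-fold lower (-1.39). Its next probe set (1416204_at) was at 810.4 and 346, 2.35-fold lower (-1.23). These readings lay 0.16 apart, and the remaining probe sets of Gpd1, at 18.0 and 14.3 (1439396_x_at) and at 3.92 and 3.57 (1456732_at), were below the floor in both pools.

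Pck1, the cytosolic phosphoenolpyruvate carboxykinase that controls glyceroneogenesis in fat, had an intensity of 4275 in wild-type and 2747 in knockout RNA, 1.56-fold lower (-0.64), at its bright probe set (1423439_at). A further probe set of Pck1 (1455209_at) was at 14.5 and 10.01, under the floor in either pool. Of all kept genes, 19.3% had a difference as low as that of Pck1, against 3.73% for Gpd1. The difference of Gpd1 was 0.75 below that of Pck1.

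Lpl, the lipase that releases fatty acids from chylomicrons and very low density lipoproteins, had the smallest difference of the 8 genes at the probe sets used. Its brighter probe set (1415904_at) had an intensity of 12206 in wild-type and 9487 in knockout RNA, 1.29-fold lower (-0.36). Its other probe set (1431056_a_at), still bright, was at 8193 and 4162, 1.97-fold lower (-0.98). The probe sets differed by 0.61, which is larger than the difference shown by the brighter of them. The mean over both was -0.67, further from 0 than the mean of Dgat2 (-0.61) and the value of Pck1 (-0.64), so the size of the difference of Lpl depends on the probe set while its direction does not.

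Promoter windows were searched for a few exact DNA motifs, among them the core that nuclear receptors bind. With windows for only part of the genes, the search cannot show whether the members share an element. Windows of 300 bases, from 250 before to 50 after the annotated start site, were taken from RefSeq for GRCm38.p6. They were given for 5 of the 9 genes (Agpat2, Agpat3, Gpam, Lpin1 and Pck1), Gpam having 2 start sites. The 4 windows below carry AGGTCA or ACGTCA in a gene that was lower (Gpam, Lpin1, Pck1) or belong to the gene that was higher (Agpat3). They are printed 5′ to 3′ on the strand of the gene, and capitals mark the matches described after them.

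Gpam, chr19:55099428-55099727, minus strand: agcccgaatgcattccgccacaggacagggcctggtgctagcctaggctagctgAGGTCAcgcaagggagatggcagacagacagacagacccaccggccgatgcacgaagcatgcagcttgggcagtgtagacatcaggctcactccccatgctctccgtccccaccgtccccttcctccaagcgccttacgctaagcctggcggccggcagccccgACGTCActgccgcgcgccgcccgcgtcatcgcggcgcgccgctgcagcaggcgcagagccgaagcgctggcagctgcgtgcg

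Lpin1, chr12:16610917-16611216, minus strand: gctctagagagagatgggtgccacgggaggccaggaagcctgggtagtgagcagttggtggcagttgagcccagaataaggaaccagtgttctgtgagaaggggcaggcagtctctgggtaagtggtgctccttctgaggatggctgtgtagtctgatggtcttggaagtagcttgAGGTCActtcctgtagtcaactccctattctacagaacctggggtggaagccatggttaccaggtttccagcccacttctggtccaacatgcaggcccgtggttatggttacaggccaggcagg

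Agpat3, chr10:78351651-78351950, minus strand: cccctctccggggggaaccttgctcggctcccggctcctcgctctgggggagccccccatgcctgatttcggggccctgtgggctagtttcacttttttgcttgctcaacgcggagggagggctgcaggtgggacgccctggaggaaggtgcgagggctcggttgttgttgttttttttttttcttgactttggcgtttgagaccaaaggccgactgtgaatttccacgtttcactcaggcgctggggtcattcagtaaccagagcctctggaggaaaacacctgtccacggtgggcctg

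Pck1, chr2:173152823-173153122, plus strand: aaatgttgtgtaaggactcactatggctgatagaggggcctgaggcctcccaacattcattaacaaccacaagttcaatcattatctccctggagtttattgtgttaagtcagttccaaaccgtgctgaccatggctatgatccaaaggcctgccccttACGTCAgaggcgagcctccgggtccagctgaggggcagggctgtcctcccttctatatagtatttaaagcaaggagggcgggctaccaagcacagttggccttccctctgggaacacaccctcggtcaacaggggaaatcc

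Letters were searched on both strands. The hexamer AGGTCA, the core that nuclear receptors such as the PPARs bind as a repeat, was found in 2 of the 6 windows. It lay at -74 to -69 from the annotated start site used for Lpin1 and at -196 to -191 in the printed window of Gpam. Both of these windows lie inside the gene, downstream of the annotated gene start. On the minus strand that start is at chr12:16653903 for Lpin1 and at chr19:55127319 for Gpam. Of all 32851 windows, 16.3% hold AGGTCA. An exact PPAR element, AGGTCA repeated in the same orientation with 1 base between (DR1), was in none of the 6 windows and in 0.0396% of all windows. An exact repeat is so rare that its absence from 6 windows carries no information. The hexamer ACGTCA, the core of cAMP response elements, lay at -91 to -86 in Pck1, where a cAMP response element is well known, and at -32 to -27 in the printed window of Gpam, against 7.51% of all windows. CCAAT was in the other Gpam window, on the opposite strand at -74 to -70 (37.4% of all windows), and TATAAA in no member window (13.6%). The window of Agpat3 held none of these letters. No matches overlapped, and a match describes letters only. The well known PPAR elements of Pck1 lie further upstream than this window reaches.

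Other enzymes of the same steps went in both directions. Of 11 further esterification enzymes, 4 were above the floor, with a median difference of -0.14 that turned positive with a higher floor or none. Gpat4, a glycerol 3-phosphate acyltransferase of the endoplasmic reticulum, had an intensity of 63.6 in wild-type and 136 in knockout RNA, 2.14-fold higher (1.10), whereas Gpam, for the same reaction in mitochondria, differed by -0.97. Mogat1, which makes diacylglycerol from monoacylglycerol, read 63.9 (wild type) and 31.1 (knockout, just under the floor), a difference of -1.04 as measured that falls short of 2-fold with the knockout value set to the floor. Lclat1, an acyltransferase of lysocardiolipin, differed by -0.11 (0.07 with the trend removed), and Lpin2, at 40.9 and 36.2, by -0.18. Agpat1, Agpat5, Lpin3 and Mogat2 were below the floor in both pools. As measured, 1 of these 4 genes was 2-fold lower and 1 was 2-fold higher, against 9.14% and 13.7% of all genes. The lower count came to 0 under 5 of the 9 alternatives and the higher count to 0 with log2(intensity + 16).

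Genes that activate fatty acids before esterification showed no common direction. Of 10 listed, 5 were kept, 2 lower and 3 higher, with a median of 0.11. Slc27a1, a fatty acid transport protein of fat and muscle, read 64.8 (wild type) and 27.7 (knockout, under the floor), at least 2.03-fold lower. Acsl6, an acyl-CoA synthetase, read 11.8 (wild type, under the floor) and 153 (knockout), at least 4.77-fold higher. Slc27a4 was at 57.3 and 61.7 (0.11). Acsl1, the main acyl-CoA synthetase of fat, has no probe set that names it alone in the annotation used here and was not analysed.

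Other genes around glycerol 3-phosphate included the largest difference of the 5 neighbouring lists examined, that of Gk2. At the probe sets used, 6 kept genes were higher and 4 lower (55.5% of all genes were lower). Aqp7 is counted as higher although its 2 kept probe sets went in opposite directions. Of 14 listed, 10 were kept, 3 of them at least 2-fold higher (13.7% of all genes) and none at least 2-fold lower (9.14%), with a median of 0.49 that came to 0.01 when the probe sets of each gene were averaged. Gpd2, the mitochondrial dehydrogenase that oxidises glycerol 3-phosphate, had an intensity of 476 in wild-type and 2311 in knockout RNA, 4.86-fold higher (2.28), while the cytosolic Gpd1 differed by -1.39. Gk2, a glycerol kinase of the testis, read 24.6 (wild type, under the floor) and 2636 (knockout), at least 82.4-fold higher. Pgp, a phosphatase that acts on glycerol 3-phosphate, was 6.40-fold higher (2.68) at its brightest probe set but differed by 0.14 at another.

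These genes were measured in a knockout pool that also held far more germ cell RNA. Of 18 germ cell markers 17 had a probe set. The knockout value was at least 2-fold higher for all 17, against 13.7% of all genes. These markers had a median of 5.10 (from Sycp3 at 2.25 to Meig1 at 6.45). Their summed intensities were 3766 (wild type) and 67408 (knockout). None was at 0, and 6 of them were under the floor in wild-type RNA. The part of these transcripts in the values of Gpd2, Gk2, Pgp, Acsl6, Gpat4 and Agpat3 was not tested.

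The remaining genes of the group went in both directions. Pcx, the pyruvate carboxylase that feeds glyceroneogenesis, had an intensity of 4687 in wild-type and 2794 in knockout RNA (-0.75), and the highest of its 5 kept probe sets was at -0.57. Pck2, the mitochondrial carboxykinase, differed by -0.59, next to the -0.64 of Pck1. Aqp9, another glycerol channel, was higher at both of its kept probe sets (0.22 and 0.77). Got2, a mitochondrial aminotransferase, differed least of this list (0.20). The glycerol channel Aqp7 had probe sets at -2.01 and 0.96, so no direction can be given for it.

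Genes that work with lipoprotein lipase were mostly lower. Of 14 listed, 9 were kept and 8 of them were lower (55.5% of all genes), 1 by 2-fold or more (2 with probe sets averaged; 9.14% of all genes), with a median of -0.60. Lrp1, an endocytic receptor for lipoprotein remnants, had an intensity of 503 in wild-type and 144 in knockout RNA, 3.50-fold lower (-1.81). Cd36, the fatty acid translocase that takes up what the lipase releases, was at 12845 and 7872 (-0.71), with a probe set as low as -1.70. Apoe, a lipoprotein ligand of such receptors, differed by -0.60 and Vldlr, a receptor that supports lipase action, by -0.84. Angptl4, an inhibitor of the lipase and a PPAR target, differed by -0.27 and Sort1 by -0.18. Lmf1, the factor needed to fold the lipase, read 21.6 (wild type, under the floor) and 36.9 (knockout), at least 1.15-fold higher. Gpihbp1, which anchors the lipase to the capillary wall, was not analysed here.

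**Figure D3:**
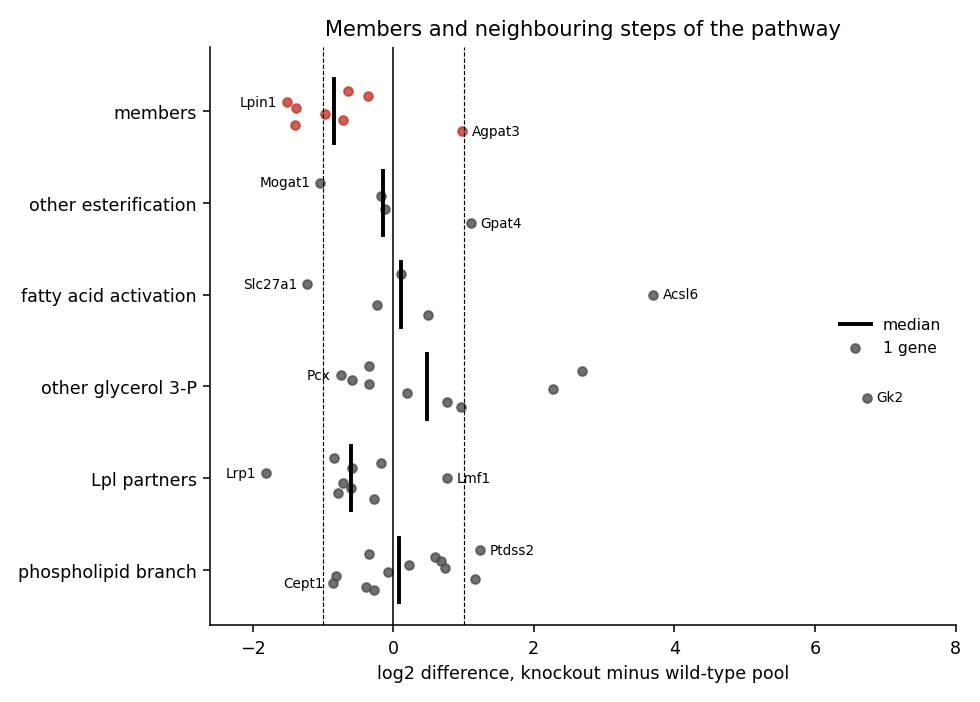
Log2 difference, knockout minus wild-type pool, of the 8 members (red) and of the kept genes of 5 lists from neighbouring steps (grey), 1 point per gene, with the median of each row as a black bar and 2-fold as dashed lines. The members (median -0.84) and the lipoprotein lipase partners (-0.60) lie mostly below 0, and the points furthest to the right are Gk2 (6.74) and Acsl6 (3.70).

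Over the 5 lists together, 40 of 64 listed genes were kept. Of these, 23 were lower, 3 at least 2-fold lower and 7 at least 2-fold higher, with a median of -0.18. These shares lie near the 55.5%, 9.14% and 13.7% of all genes. The members and these lists were chosen by function with earlier results of these arrays known, so their medians describe the arrays and single out no step.

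The members were then set beside markers of the cells that the fat pad can hold. The 13 measured adipocyte markers were all lower (55.5% of all genes), although Car3 came to 0.02 when differences were centred. Of the 13, 9 were lower by 2-fold or more (9.14% of all genes). The median of the 13 was -1.20, and they ran from Lep, the hormone leptin (-2.87), to Car3, the abundant carbonic anhydrase of fat (-0.06). Their summed intensity was 70565 for wild-type and 48365 for knockout RNA. These sums weigh the brightest markers most. Single markers ran from 231.5 to 15603 in wild-type and from 80.3 to 14926 in knockout RNA. Against that median, 3 members were lower still, Lpin1 by -0.31, Dgat1 by -0.20 and Gpd1 by -0.19, the last 2 margins being under the 0.25 median SD between probe sets. Averaged over its probe sets Lpin1 was at -1.18, above that median. The other 5 were above it, Gpam by 0.23, Dgat2 by 0.49, Pck1 by 0.56, Lpl by 0.84 and Agpat3 by 2.19. In RNA from whole tissue, a smaller share of fat cell RNA in the pool and less RNA of a gene per fat cell cannot be told apart.

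Markers of macrophages and endothelium were mostly lower as well. For comparison, 55.5% of all genes were lower by any amount. All 14 macrophage markers were lower (median -0.82, from Cd163 at -2.61 to Ctss at -0.17), with sums of 5941 and 3553. Of 10 endothelial markers 9 were lower (median -0.96, from Sox18 at -1.59 to Cldn5 at 0.01), with sums of 1461 and 763. Of 7 preadipocyte markers 4 were lower (sums 2298 and 1753), and they ran from Ebf2 at -1.31 to Dpp4 at 0.68, and their median of -0.87 came to 0 with no floor, -0.10 with values below the floor set to it, -0.45 with a floor of log2 6, -0.54 with log2(intensity + 16) and 0.12 without probe sets of shared sequence.

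Epididymis markers were abundant in both pools, with sums of 49089 and 57087. Of 8 measured, 7 were higher in the knockout pool and 1 by 2-fold or more. Of all genes, 55.5% were lower and 13.7% at least 2-fold higher. The 8 markers had a median of 0.32, from Cuzd1 at -0.03, or 0.05 when centred, to Defb1 at 1.57. The median of the members, -0.84, lay near those of the macrophage and endothelial markers and above that of the adipocyte markers. How much of the lower member values goes with the makeup of the pooled tissue was not tested.

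**Figure D4:**
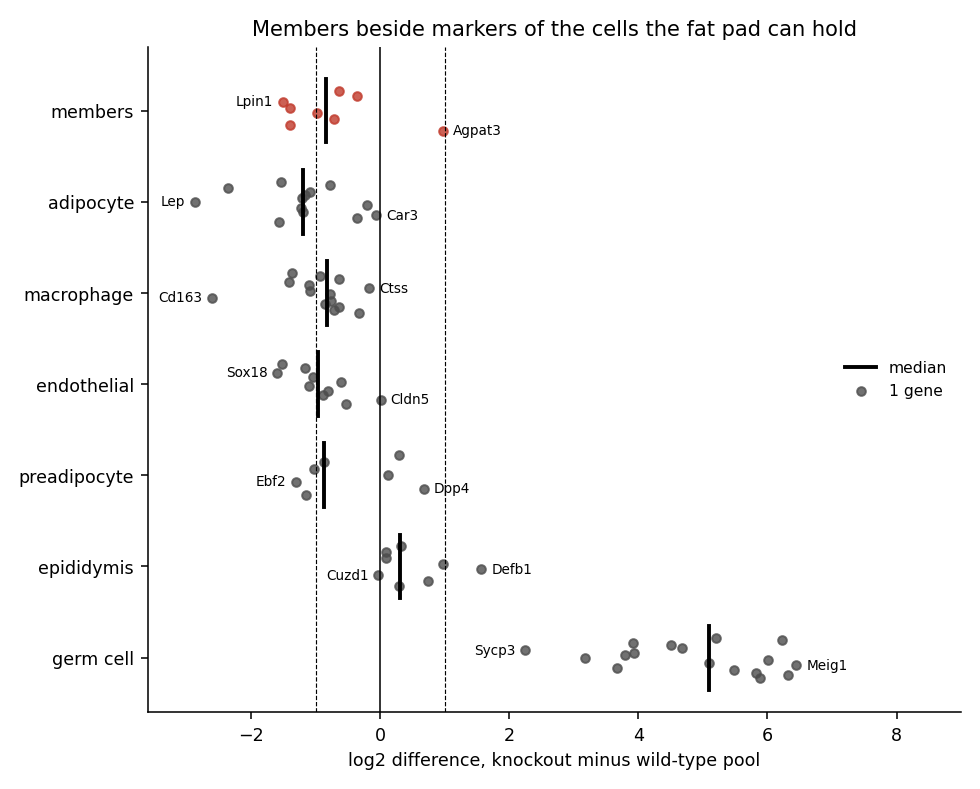
Log2 difference, knockout minus wild-type pool, of the 8 members (red) and of the kept markers of 6 cell types or tissues (grey), with the median of each row as a black bar and 2-fold as dashed lines. Medians are -1.20 for adipocyte, -0.82 for macrophage, -0.96 for endothelial, -0.87 for preadipocyte, 0.32 for epididymis and 5.10 for germ cell markers, against -0.84 for the members.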

How the data were processed

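Epididymal fat RNA of 5 mice per genotype was pooled and each pool hybridised to 1 array, per the labels and design text. The authors deposited an intensity per probe set, computed with GCRMA 2.20 according to the submitters' processing notes, a method that corrects background from probe sequence, normalises quantiles and summarises probes; they run on a linear scale. Equal quantiles presume that few genes differ, so a shift of many genes in 1 direction would be reduced. The set of arrays that was normalised jointly is not stated in the labels.

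Python 3.11.15 with pandas 2.3.3 and numpy 2.4.6 was used. Genes were named from the array annotation, updated by Entrez identifier (20393 probe sets name 1 gene, 20364 of them matched). The 691 probe sets that name several genes were left out. Probe sets reaching log2 5 (an intensity of 32) on either array were kept, each gene was represented by the kept probe set with the highest mean, and folds against a value below the floor set it to the floor ("at least"). Called means past 2-fold. The counting was tested on simulated data. The 9 alternatives were other floors (log2 4, log2 6, none), values below the floor set to it, log2(intensity + 16), the mean over probe sets, centring, removal of the trend with intensity (lowess) and leaving out probe sets of shared sequence.

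Members and gene lists were chosen with earlier results of these data known. All members were named, with the genes of each list past 2-fold and the one closest to 0, and the extremes of the marker lists; Lpin2, Pcx, Pck2, Aqp7, Aqp9, Cd36, Apoe, Vldlr, Angptl4, Lmf1, Chpt1, Cept1, Adipoq, Fabp4, H2-D1 and Lgals1, and genes named as below the floor or not analysed, were chosen after their values were seen, as were the brightness limits of log2 8 and 13 and of 10000. The arrays' number limits the precision.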

Additional observations from a re-analysis of the deposited data

How the results depend on the processing

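Of the 8 members, 7 were lower under each of 8 alternatives, and without probe sets of shared sequence, which leaves no value for Agpat3 and Dgat1, all 6 others were lower. The median of the members ran from -0.84 to -0.71 and the count at least 2-fold lower from 2 to 3, being 2 where Dgat1 had no value. Agpat3 ran from 0.97 to 1.13 and passed 2-fold when differences were centred or the trend with intensity was removed, giving 1 member at least 2-fold higher in either case. Averaging probe sets moved Lpin1 to -1.18 and Lpl to -0.67. The median of the further esterification enzymes became 0.50 with a floor of log2 6 and 0.01 with none. That of the other glycerol 3-phosphate genes became 0.20 at log2 4 as the floor, 0.16 without any and 0.01 with probe sets averaged. The phospholipid branch became -0.31 with a floor of log2 6 and -0.53 without probe sets of shared sequence, and the preadipocyte markers 0.12 without them. The lowest and highest medians of the members are the main value and that with the trend removed. The changes of list medians given so far in this paragraph come from which probe sets are kept or averaged. With the same probe sets kept, the preadipocyte median moved to -0.10 when values below the floor were set to it. With log2(intensity + 16) the preadipocyte median moved to -0.54. The germ cell median of 5.10 became 4.51 and 4.44 under the same settings. No paired analysis was possible because each genotype has 1 pooled array. Leaving out a replicate was not possible for the same reason. Genes near the floor, among them Mogat1, Slc27a1, Lmf1 and Chka, give bounds only.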

Other observations

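Phosphatidic acid and diacylglycerol also feed phospholipid synthesis. Of 15 genes of that branch, 12 were kept, 6 lower and 6 higher (5 lower when differences were centred; median 0.08, which was negative with a higher floor or without probe sets of shared sequence). None was at least 2-fold lower (9.14% of all genes) and 2 were at least 2-fold higher as measured (13.7% of all genes). The lower count came to 1 with probe sets averaged and without probe sets of shared sequence. The higher count came to 0 without probe sets of shared sequence. It came to 1 with a floor of log2 6, with values below the floor set to it and with log2(intensity + 16). Ptdss2, a phosphatidylserine synthase, had an intensity of 93.2 in wild-type and 218 in knockout RNA, 2.34-fold higher, with its 4 kept probe sets between 1.23 and 2.04. Chka, choline kinase, read 23.3 (wild type, under the floor) and 52.1 (knockout), at least 1.63-fold higher. Chpt1, which draws diacylglycerol into phosphatidylcholine, was at 3895 and 2211 (-0.82), with its 4 kept probe sets between -1.43 and -0.82. Cept1 was at 159 and 87.8 (-0.85). At the probe sets used, both lay close to the member median of -0.84. Etnk1, ethanolamine kinase, differed by -0.07, or 0.02 when centred. The median difference of the germ cell markers was 5.10, and their part in these values was not tested.

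Small differences were common among very bright genes. Lpl has a mean log2 intensity of 13.39, and none of the 34 genes at 13 or above was at least 2-fold lower; their median was -0.03 with quartiles of -0.14 and 0.07. Within that group only 4 genes, Lpl included, were as low as its -0.36, the others being H2-D1 (-0.72), Cd36 (-0.71) and Lgals1 (-0.66). Among the adipocyte markers, the 3 with a wild-type intensity of at least 10000 (Adipoq, Fabp4 and Car3) ran from -0.35 to -0.06, whereas the other 10 ran from -2.87 to -0.78. Further probe sets of Fabp4 and Car3 were as low as -1.88 and -0.59. The dimmer probe set of Lpl differed by -0.98. The part of probe brightness in these differences was not tested.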
